A study of Mus musculus with 9 samples.

Results

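The genes named Nduf encode the nuclear subunits of mitochondrial complex I, the NADH:ubiquinone oxidoreductase of the respiratory chain, and a number of the factors that assemble it. They were taken as all mouse RefSeq protein-coding genes whose symbol starts with Nduf (GRCm38.p6, the assembly of mm10). The rule gave 49 of 21883 protein-coding genes on 18 chromosomes, with 5 Nduf pseudogenes left out. The name is wider than the complex: 8 of the 49 are assembly factors (Ndufaf genes), and Ndufa4 and its paralog Ndufa4l2 are no longer counted as complex I subunits. Grouped by their place in the complex, the other genes were 8 of the N module, 8 of the Q module, 9 of the proximal membrane arm, 13 Ndufb genes of the distal membrane arm and the acyl carrier protein gene Ndufab1.

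Complex I takes electrons from NADH in its N module, passes them along iron-sulfur clusters through the Q module to ubiquinone, and pumps protons across the inner mitochondrial membrane with its membrane arm. Core subunits carry out the reaction, and accessory subunits surround and stabilise them. The pumping core subunits are encoded by mitochondrial DNA and are not among the Nduf genes. In dendritic cells, oxidative phosphorylation is prominent at rest and gives way to glycolysis on activation.

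The series profiled accessible chromatin by ATAC-seq, a method that tags open DNA with a transposase, in dendritic cells derived from bone marrow of C57Bl/6 mice. All cultures were kept in GM-CSF at 20 ng/mL for 9 days, received a retrovirus on day 2 and were sorted for CD11c and for the human CD8 reporter that the vector carries. The control vector mi8 was paired with OE, which overexpresses Pcgf6, a subunit of a repressive Polycomb complex, and the control vector LMP8 with HP109, which carries 1 hairpin against Pcgf6. Each of the 4 vectors had 2 libraries, 1 further library was an input, and the study asked what Pcgf6 does to chromatin in these cells. The authors deposited 1 peak list per vector, so there was no spread between replicates, no standard deviation and no test between vectors.

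The lists held 170976 peaks for mi8, 111510 for OE, 140735 for LMP8 and 170103 for HP109 on the chromosomes kept. Read totals were not analysed here, so the depth behind a value is known only through the recovered pileup described below. An end peak was present at 11 of 11 dendritic cell markers in mi8, LMP8 and HP109 and at 10 in OE, which lacked one at Ciita. All 4 lists had an end peak at 4 of 4 macrophage markers and at 3 or 4 of 4 erythroid markers. Counts of B cell markers were 1 or 2 of 3, of granulocyte markers 1 to 3 of 5, of stromal markers 2 to 4 of 4 and of T cell markers 0 or 1 of 3. An end peak is open chromatin and not expression, and the part of other cells in the results below was not tested.

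An end peak was a peak with at least 1 bp within 1000 bp of either end of a gene. Its strength was the −log10 q of its summit, the authors' own value, which depends on the depth of a list and is therefore read within 1 list. The promoters of 5 members are shown because they hold the strongest and the weakest ends of the family and the motifs described further on. Each runs from 250 bases before to 50 bases after the gene start, 5′ to 3′ on the strand of the gene, as RefSeq gives it on GRCm38.p6. Ndufab1 (chr7:122101799-122102098, minus strand) had the strongest end peak of the family by its median over the lists, and Ndufaf1 (chr2:119662785-119663084, minus strand) had the weakest. Ndufaf8 (chr11:120098684-120098983, plus strand) was among the 6 strongest. Of the ETS, NRF1 and YY1 motifs its window holds 2, and those of Ndufa11 (chr17:56717512-56717811, plus strand) and Ndufs7 (chr10:80249199-80249498, plus strand) hold 1 each. Matches to the other motifs searched further on are not marked. Capitals mark CCGGAAG, the letters bound by ETS factors such as GABPA, in Ndufaf8 and Ndufaf1, the letters bound by NRF1 in Ndufa11, and AANATGGCG, the letters bound by YY1, in Ndufaf8 and Ndufs7.
Ndufab1: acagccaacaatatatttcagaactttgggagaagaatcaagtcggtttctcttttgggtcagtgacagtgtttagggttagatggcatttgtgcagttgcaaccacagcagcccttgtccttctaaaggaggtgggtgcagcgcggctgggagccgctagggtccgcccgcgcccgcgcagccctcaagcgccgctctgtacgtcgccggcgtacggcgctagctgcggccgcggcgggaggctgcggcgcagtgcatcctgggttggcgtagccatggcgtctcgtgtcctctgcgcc
Ndufaf8: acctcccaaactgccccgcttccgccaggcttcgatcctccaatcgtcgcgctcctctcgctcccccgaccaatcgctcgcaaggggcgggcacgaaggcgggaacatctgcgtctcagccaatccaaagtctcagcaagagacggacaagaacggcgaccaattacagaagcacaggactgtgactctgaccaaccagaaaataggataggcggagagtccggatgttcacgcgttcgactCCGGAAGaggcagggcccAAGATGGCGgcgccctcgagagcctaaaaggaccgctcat
Ndufa11: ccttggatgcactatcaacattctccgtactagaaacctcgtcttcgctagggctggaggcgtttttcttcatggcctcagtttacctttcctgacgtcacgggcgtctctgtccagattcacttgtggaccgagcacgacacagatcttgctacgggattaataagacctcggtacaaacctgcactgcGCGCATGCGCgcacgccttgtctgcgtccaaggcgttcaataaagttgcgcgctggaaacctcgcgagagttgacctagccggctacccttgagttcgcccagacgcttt
Ndufs7: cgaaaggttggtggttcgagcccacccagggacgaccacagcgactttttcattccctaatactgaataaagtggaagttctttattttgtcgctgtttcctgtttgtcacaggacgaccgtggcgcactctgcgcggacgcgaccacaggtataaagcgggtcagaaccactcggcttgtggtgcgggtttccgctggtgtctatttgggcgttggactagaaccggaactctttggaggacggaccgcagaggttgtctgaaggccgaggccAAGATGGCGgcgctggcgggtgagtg
Ndufaf1: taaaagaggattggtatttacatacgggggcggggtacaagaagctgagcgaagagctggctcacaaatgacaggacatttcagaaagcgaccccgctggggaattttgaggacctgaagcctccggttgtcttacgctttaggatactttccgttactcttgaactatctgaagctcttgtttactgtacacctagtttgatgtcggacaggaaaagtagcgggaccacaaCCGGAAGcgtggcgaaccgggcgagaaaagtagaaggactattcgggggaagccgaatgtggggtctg
The Ndufab1 window holds none of these 3 motifs. The gene with the strongest end peak therefore lacks them in this window, and the gene with the weakest peak that was present in all lists holds an ETS match. These are single genes, and median strengths with and without a motif are given further on.

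Open chromatin at the ends of Nduf genes was close to universal in all 4 lists. In mi8, 49 of 49 carried one, against 64.8% of all protein-coding genes. OE also had one at 49 of 49, against 58.2% of all genes, and HP109 at 49 of 49, against 64.3%. LMP8 had one at 48 of 49, against 62.4%, and the gene without was Ndufb4b. Thus 48 of 49 Nduf genes had an end peak in all 4 lists (98.0%, exact binomial interval 89.1 to 99.9), against 57.5% of all genes. The intervals here and below cover counting error over genes only. When only the annotated start was used, 41 of the 42 Nduf genes whose start is in the promoter table had a peak there in all 4 lists, against 57.7% of 17491 genes.

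The families that work beside complex I mostly had an end peak in every list as well, complex IV least often. All 9 of the measured assembly factors of complex I without the Nduf name had an end peak in every list. So did all 8 genes of complex II, a set that includes its Sdhaf assembly factors, all 9 of complex III and all 17 of complex V. Of 18 complex IV genes 13 did, and the 5 others were Cox4i2, Cox6a2, Cox7b2, Cox8b and Cox8c, isoforms known from lung, muscle, testis or fat. Of 81 cytosolic ribosomal protein genes, 77 had one in every list. These counts describe the sets and make none of them particular.

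The strength of the Nduf end peaks was moderately above that of other open genes and less spread. In mi8 the median of the strongest end peak was 73.4 (order-statistic interval 64.5 to 84.2, range 12.5 to 118), against 63.6 over all genes with an end peak. In OE it was 64.1 (interval 53.0 to 78.4), against 57.1. In LMP8 it was 44.8 (interval 38.0 to 50.2), against 40.2, and in HP109 74.0 (interval 62.7 to 86.4), against 67.5. The all-gene median lay inside the Nduf interval in OE, LMP8 and HP109 and just below it in mi8. In mi8, 32 of 49 Nduf genes lay above the all-gene median, 12 above the upper quartile of all genes and 6 below the lower quartile. The corresponding numbers were 29, 13 and 6 of 49 in OE, 29, 10 and 4 of 48 in LMP8, and 30, 13 and 5 of 49 in HP109. The family therefore held few weak end peaks, while its share of very strong ones was like that of all open genes. This strength is not particular to the Nduf genes. In mi8 the medians were 73.6 for cytosolic ribosomal protein genes, 75.5 for complex II, 78.9 for complex III, 61.3 for complex IV and 82.1 for complex V. The complex I assembly factors without the Nduf name had 95.9.

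**Figure D1:**
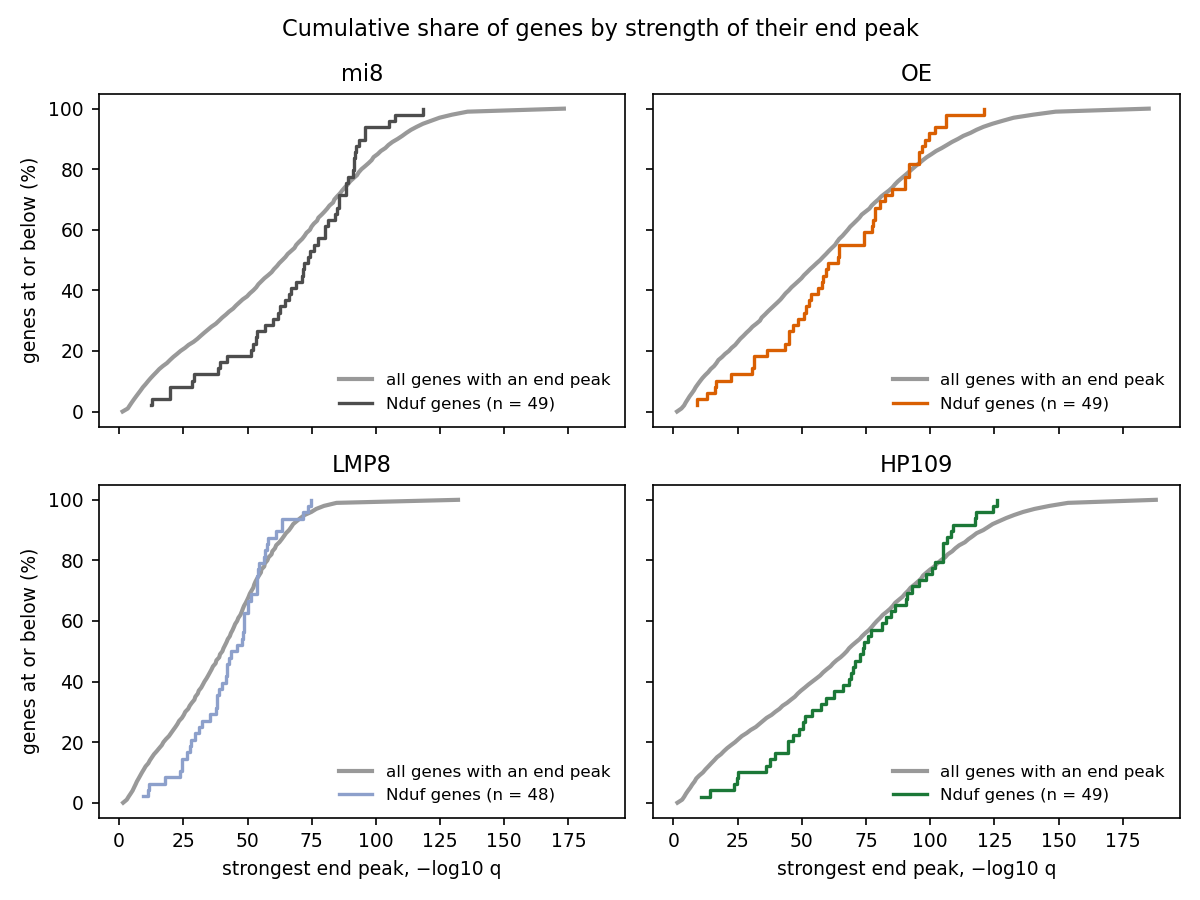
Cumulative percentage of genes (y axis) at or below a given −log10 q of the strongest end peak (x axis), 1 panel per list, with Nduf genes as the coloured step line and all genes with an end peak in grey. In each panel the Nduf line runs to the right of the grey line over the weak peaks and meets it among the strong ones, where 10 to 13 Nduf genes lie above the upper quartile of all genes.

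The modules of the complex overlapped widely. In mi8 the module medians were 79.5 for the N module, 67.8 for the Q module, 66.1 for the proximal membrane arm, 75.8 for the distal membrane arm and 74.5 for the assembly factors. Their ranges in mi8 overlapped but were not equally wide. The distal arm ran from 12.5 to 105, and the assembly factors from 19.9 to 95.9. The N module ran from 52.2 to 108, the Q module from 39.1 to 91.6 and the proximal arm from 28.3 to 85.4. No module stood outside the range of the others.

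**Figure D2:**
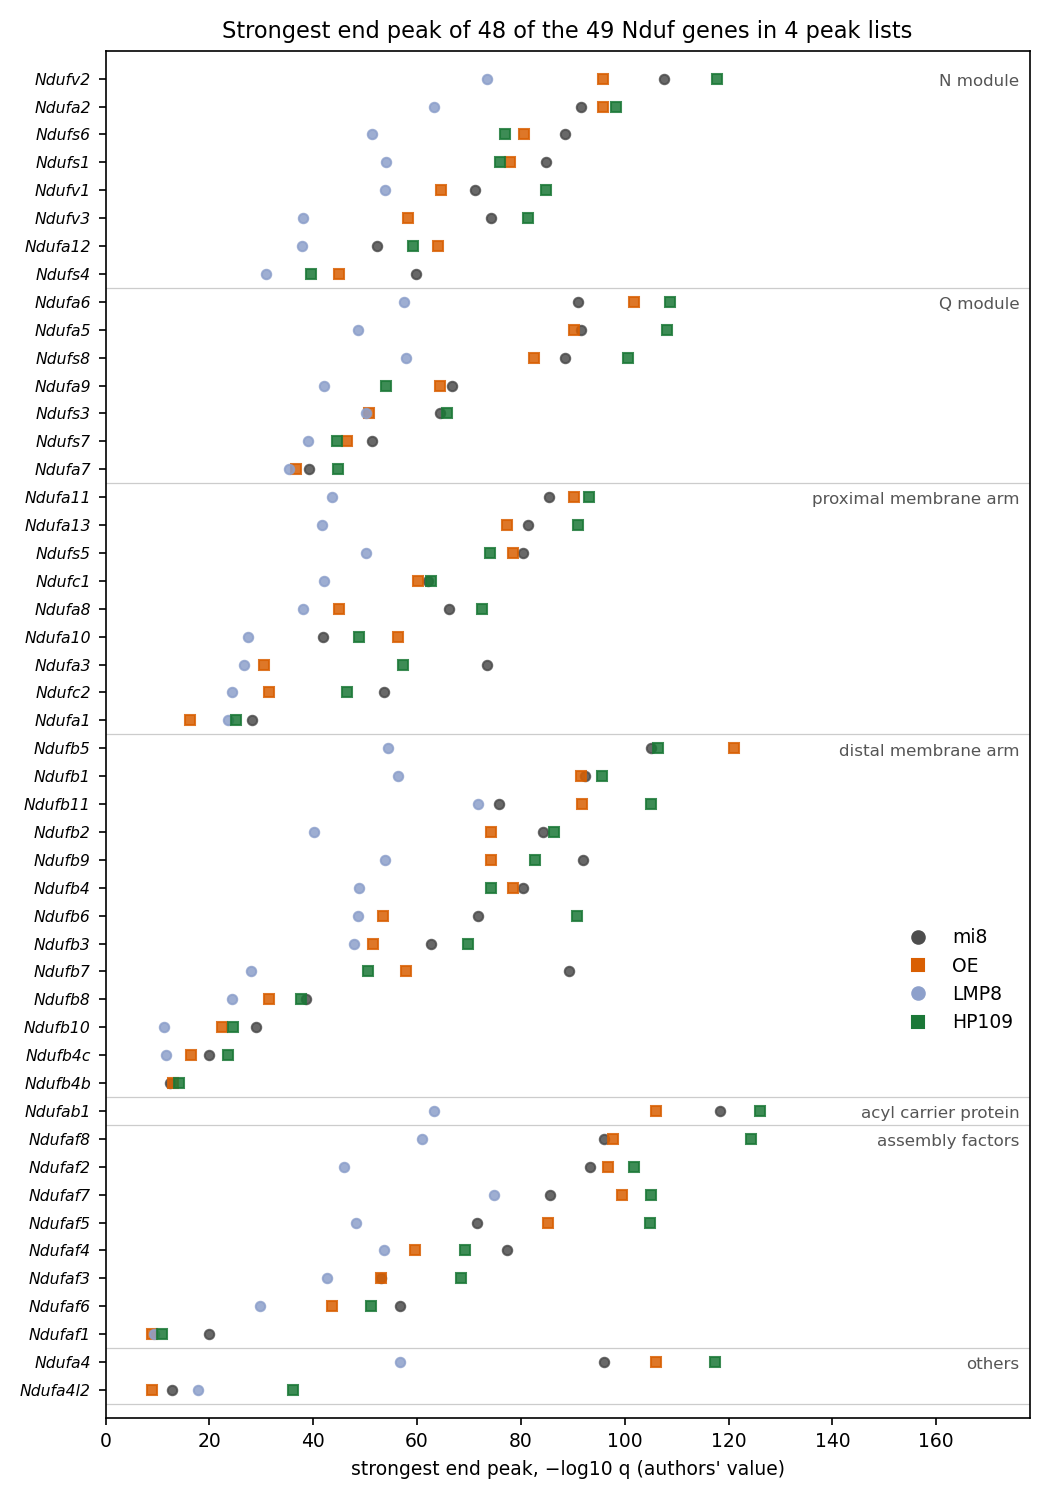
Strongest end peak of 48 of the 49 Nduf genes (y axis, grouped by module and sorted within it) as the authors' −log10 q (x axis), with 1 point per peak list: circles for the controls mi8 and LMP8, squares for OE and HP109. The modules overlap, Ndufab1 and Ndufv2 reach over 100 in mi8 and HP109, Ndufb4b has no LMP8 point, and LMP8 values are low throughout, as they are over all genes (median 40.2).

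The nuclear core subunits bind the cofactors of the electron path, and those named here had an end peak in every list. Ndufv1, which binds NADH and the flavin that first takes its electrons, had a −log10 q of 71.1 in mi8, 64.6 in OE, 53.9 in LMP8 and 84.8 in HP109, close to the family median in mi8 and OE and above it in LMP8 and HP109. Ndufv2, its iron-sulfur partner in the N module, had the strongest peak of these genes in every list, with 108 in mi8, 95.7 in OE, 73.4 in LMP8 and 118 in HP109. Ndufs1, the large iron-sulfur subunit of the same module, had 84.8, 77.9, 54.0 and 75.9 in that order of lists. In the Q module, Ndufs8, which carries iron-sulfur clusters towards ubiquinone, had 88.5 in mi8, 82.5 in OE, 57.9 in LMP8 and 101 in HP109. Ndufs3, a structural core subunit, had 64.5, 50.7, 50.2 and 65.9 in the same order. Ndufs7, which holds the last cluster before ubiquinone, had 51.3, 46.5, 38.9 and 44.5, and was the lowest of these genes in every list. Ndufs7 lay below the median of all genes with an end peak in every list, and Ndufv2 above it.

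Ndufa4l2, the paralog of Ndufa4 that is known as a hypoxia-induced gene, had its strongest peak inside the gene and not at an end. Its strongest end peak, at the end next to Stac3, had a −log10 q of 12.8 in mi8, 9.04 in OE, 17.7 in LMP8 and 36.1 in HP109, which put it among the 6 lowest of the family. The OE value came from another peak at that end, which did not overlap those of the other lists. In the region where mi8, LMP8 and HP109 had theirs, OE had 6.59. A peak inside the gene had 53.4, 51.8, 32.2 and 69.0 in the same order, with pileups of 59, 58, 38 and 63. Over the Nduf genes with an end peak in all 4 lists, the strongest peak anywhere in the gene was an end peak in every list at 43 of 48 (89.6%), against 71.4% of all such genes, without matching for gene length.

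**Figure D3:**
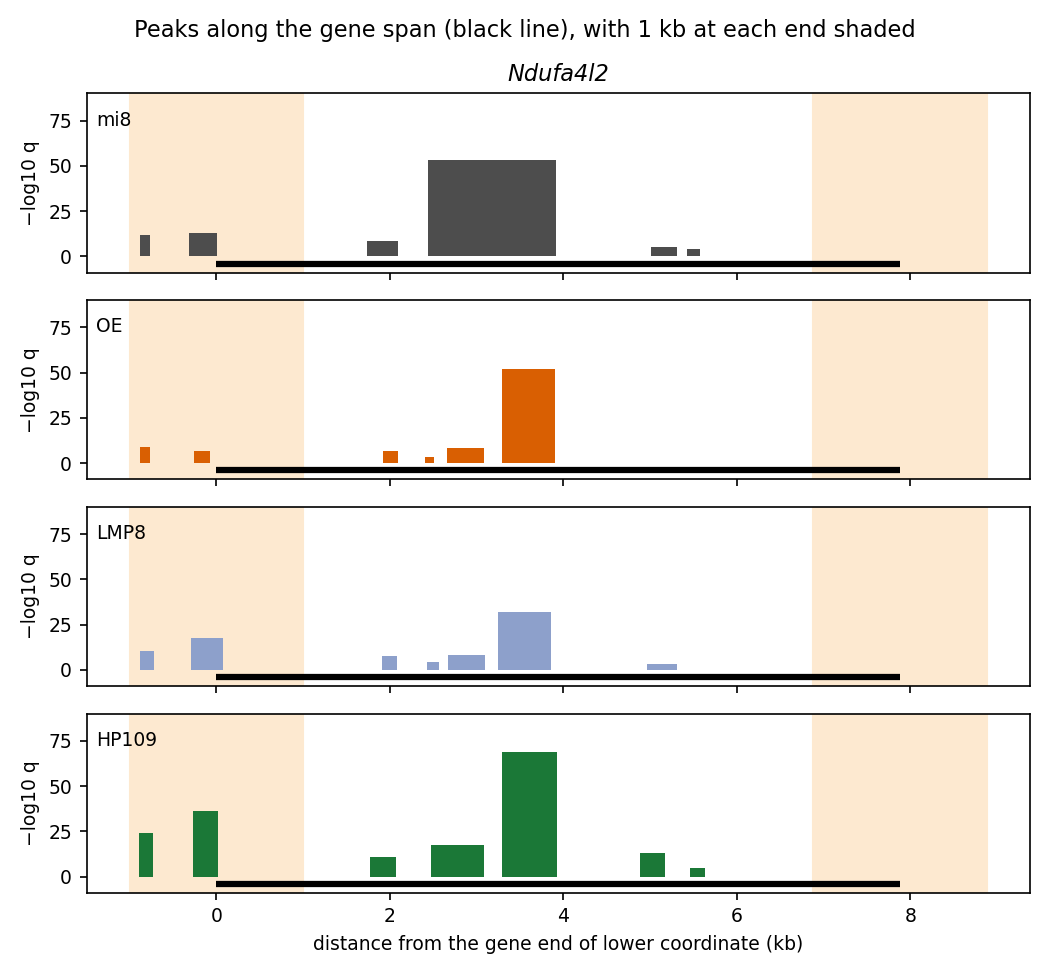
Peaks along Ndufa4l2 in the 4 lists, as distance in kb from the gene end of lower coordinate (x axis) and −log10 q (y axis); each bar is 1 peak drawn at its width, the black line is the gene and the shaded bands are the 1 kb windows at its ends. In every list the tallest peak lies inside the gene and outside the bands, with 53.4 in mi8 and 69.0 in HP109.

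The 6 Nduf genes with the highest median over the lists were 1 gene each of the N module, the Q module and the distal arm, the acyl carrier protein, an assembly factor and Ndufa4, and 0 were of the proximal arm. Ndufab1, the mitochondrial acyl carrier protein, which also serves fatty acid and lipoate synthesis, had 118 in mi8, 106 in OE, 63.3 in LMP8 and 126 in HP109. In each list this was at or above the value of at least 87.3% of all genes with an end peak. Ndufb5, an accessory subunit of the distal arm, had 105, 121, 54.3 and 106, and its OE value was the highest of any Nduf gene in that list. Ndufa4, now assigned to cytochrome c oxidase, had 95.9, 106, 56.7 and 117. Ndufaf8, an assembly factor that acts with Ndufaf5, had 95.9, 97.8, 61.0 and 124. Ndufa6, the Q module subunit that binds the acyl carrier protein, had 91.0, 102, 57.5 and 109, and Ndufv2 completed the group. All 6 were lowest in LMP8, the list with the lowest values over all genes as well.

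Ndufaf1, a factor in building the membrane arm, stood at the other end among genes with a peak at their start. Its −log10 q was 19.9 in mi8, 8.97 in OE, 9.25 in LMP8 and 10.8 in HP109, with summit pileups of 27, 17, 15 and 17 reads. Ndufb10, a cysteine-rich subunit of the distal arm, had 29.1, 22.4, 11.2 and 24.6. Ndufa1, an X-linked membrane subunit, had 28.3, 16.3, 23.7 and 25.1, split over a pair of peaks that exchanged first place between lists. Ndufa4l2 and the small genes Ndufb4b and Ndufb4c made up the rest of the 6 lowest.

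Ndufb4b and Ndufb4c carry the name of the distal arm subunit gene Ndufb4 and span 471 and 485 bp, against 6767 bp for Ndufb4. Ndufb4b was the only member without an end peak in a list: 12.5 in mi8, 12.9 in OE and 14.1 in HP109, with none in LMP8. The same pattern, lacking in LMP8 alone, was found at 0.393% of all genes. Ndufb4c had 19.9 in mi8, 16.4 in OE, 11.7 in LMP8 and 23.6 in HP109. The peaks at these genes were 103 to 225 bp wide, where the strongest peaks of the family had median widths of 827 bp in mi8, 748 in OE, 772 in LMP8 and 741 in HP109. Ndufb4 itself had 80.3, 78.4, 48.8 and 74.2. Reads from near-identical copies can be shared between them, and how the authors' mapping treated these genes was not tested. The start of Ndufb4 (chr16:37654319-37654618, minus strand) and that of Ndufb4b (chr19:25032858-25033157, plus strand), both from RefSeq on GRCm38.p6, are shown with their longest shared run of 26 bases in capitals.
Ndufb4: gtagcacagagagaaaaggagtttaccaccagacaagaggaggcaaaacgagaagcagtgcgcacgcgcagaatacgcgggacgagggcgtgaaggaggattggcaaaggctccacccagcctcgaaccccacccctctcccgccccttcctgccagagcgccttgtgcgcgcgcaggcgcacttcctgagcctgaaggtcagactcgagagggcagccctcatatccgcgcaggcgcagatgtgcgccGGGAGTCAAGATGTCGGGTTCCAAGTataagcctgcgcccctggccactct
Ndufb4b: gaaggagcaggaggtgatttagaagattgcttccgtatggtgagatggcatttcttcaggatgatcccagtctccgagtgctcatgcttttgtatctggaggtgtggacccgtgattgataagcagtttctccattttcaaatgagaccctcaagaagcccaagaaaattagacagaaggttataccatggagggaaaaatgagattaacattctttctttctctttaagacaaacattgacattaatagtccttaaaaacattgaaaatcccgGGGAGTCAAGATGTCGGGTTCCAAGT
The run covers bases -1 to 24 counted from the start of Ndufb4, where base 0 is the first of the transcript, and bases 24 to 49 of Ndufb4b, up to the edge of its window. Upstream of it the windows differ in composition. The Ndufb4 window has 62.3% G and C and an observed over expected CpG ratio of 0.789, and the Ndufb4b window has 41.3% and 0.399.

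Summits lay close to the annotated start. Over the 42 Nduf genes with a start in the table, the median position of the mi8 summit was -39.5 bp, negative being upstream, and 26 (61.9%) lay within 100 bp of the start, against 46.9% of all such genes. Within 250 bp the shares were 81.0% and 63.6%. The range of the summit over the 4 lists had a median of 33 bp, against 62 bp over 12575 genes with an end peak in every list. It stayed within 100 bp at 38 of 48 Nduf genes (79.2%), against 67.5% of all such genes. The range exceeded 250 bp at 6 genes, and the widest were 1659 bp at Ndufa13, a proximal arm subunit also known as a cell death regulator, and 1093 bp at Ndufa1. At Ndufa13 the strongest peak in mi8, OE and HP109 was the one at 69901306 to 69902280 of chromosome 8, and in LMP8 its neighbour at 69902332 to 69903572. At Ndufa8 and Ndufb6 the strongest end peak lay at the far end of the gene in all lists. These far-end peaks are the ones that enter the strengths and ratios of the 2 genes. The one of Ndufb6 in mi8 held the starts of Smim27 and Topors, and Morn5 has an end within 1000 bp of an end of Ndufa8. The peak at the start of Ndufa8 had 47.4 in mi8, 35.5 in OE, 25.4 in LMP8 and 49.5 in HP109, and that of Ndufb6 64.7, 51.8, 32.5 and 46.3.

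Some Nduf promoters were shared with another gene. In mi8 the strongest end peak held both the gene's own start and that of another coding gene at 13 of the 42 genes with a start in the table (31.0%), against 12.4% of 11369 genes with a start and an end peak. The 13 partners run on the opposite strand, such as Vmac beside Ndufa11, Phf14 beside Ndufa4, Cpsf2 beside Ndufb1, Rbm10 beside Ndufb11, and Tepsin beside Ndufaf8. At Ndufb5 the partner was Mrpl47, a mitochondrial ribosomal protein gene, and at Ndufa7 it was Rps28, a cytosolic one. Among the core subunits above, the mi8 peak of Ndufs3 also held the start of Kbtbd4. That of Ndufs1, whose own start is not in the table, held the start of Eef1b2. The peak of such a pair cannot be assigned to either gene. At Ndufa11 the mi8 summit lay 739 bp upstream of the Ndufa11 start, in a peak 1493 bp wide.

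With added Pcgf6, no Nduf gene changed its state of presence. Of the 49, 0 kept an end peak in mi8 while lacking it in OE, against 6.77% of all genes, and 0 had the reverse, against 0.192%. Both counts follow from the end peaks at all 49 genes in mi8 and in OE. To compare heights between lists, the read pileup at each summit was recovered from the deposited fold and p-value and divided by the lowest background of its list, which was taken as the measure of depth. The ratio of OE to mi8 had a median of 0.935 over the Nduf genes (order-statistic interval 0.899 to 0.973, range 0.536 to 1.18), against 0.879 over 12696 genes with both peaks. The Nduf interval lay above the all-gene median, and 34 of the 49 genes lay above it. The related sets had medians above that of all genes as well, so this is not particular to the Nduf genes. The medians were 0.941 for cytosolic ribosomal protein genes, 0.945 for complex II, 0.933 for complex III, 0.943 for complex IV and 0.915 for complex V. The other complex I assembly factors had 1.01. The scaled pileup was at least 1.5 times as low in OE at 2 of 49 Nduf genes, against 16.5% of all genes, and at least 1.5 times as high at 0, against 0.339%. It was at least 1.5 times as low at 5.19% of the ribosomal protein genes, 15.4% of complex IV, 17.6% of complex V and 0% of the other related sets.

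The 2 Nduf genes at least 1.5 times as low in OE were Ndufa3 and Ndufaf1. Ndufa3, a small subunit of the proximal arm, had summit pileups of 69 in mi8, 38 in OE, 31 in LMP8 and 52 in HP109. Scaled as above these were 35.4, 19.0, 21.8 and 38.4, so HP109 was the highest and OE the lowest. The controls differed as well, with a ratio of LMP8 to mi8 of 0.615, and LMP8 lay nearer to OE than to mi8. For Ndufa3 the ratio of OE to mi8 was 0.536 (counting interval 0.351 to 0.807). It was the only Nduf gene whose counting interval lay wholly below the all-gene median, a state of 5.94% of all genes, and none lay wholly above it, against 1.33%. Ndufaf1, with scaled pileups of 13.9 in mi8, 8.49 in OE, 10.5 in LMP8 and 12.5 in HP109, had an OE to mi8 ratio of 0.612 (interval 0.313 to 1.17), and Ndufc2, another proximal arm subunit, 53 and 37, a ratio of 0.679 (interval 0.434 to 1.05). The highest ratios were 1.18 at Ndufa10 (46 and 56 reads), a proximal arm subunit with a kinase-like fold, 1.13 at Ndufb11 and 1.12 at Ndufaf5, the enzyme that modifies the product of Ndufs7. The intervals of these 3 included 1 and the all-gene median.

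The hairpin list and its control differed in presence only at Ndufb4b. That gene, 1 of 49, carried an end peak in HP109 but not in LMP8, against 2.69% of all genes. None of the 49 had the reverse, against 0.74%, which follows from the end peaks at all 49 in HP109. The scaled pileup ratio of HP109 to LMP8 had a median of 1.54 over 48 Nduf genes (order-statistic interval 1.41 to 1.63, range 1.08 to 1.85), against 1.52 over 13487 genes. It was at least 1.5 at 28 of the 48, against 54.3% of all genes, and no Nduf gene was at least 1.5 times as low, against 0.297%. The Nduf genes therefore followed the level of all genes, and a higher share of reads in peaks in HP109 and an effect of the hairpin on all promoters cannot be told apart. No counting interval lay wholly above the all-gene median, against 0.4% of all genes, or wholly below it, against 0.971%. The highest ratios were at Ndufa5, a Q module subunit, with 51 reads in LMP8 and 90 in HP109 and a ratio of 1.85 (interval 1.30 to 2.67), Ndufaf5 with 50 and 88, and Ndufa11 with 45 and 78. The lowest were 1.08 at Ndufa1 (31 and 32 reads, but 22 and 35, a ratio of 1.67, in its other end region), 1.13 at Ndufs7 (41 and 44) and 1.19 at Ndufaf1 (15 and 17).

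**Figure D4:**
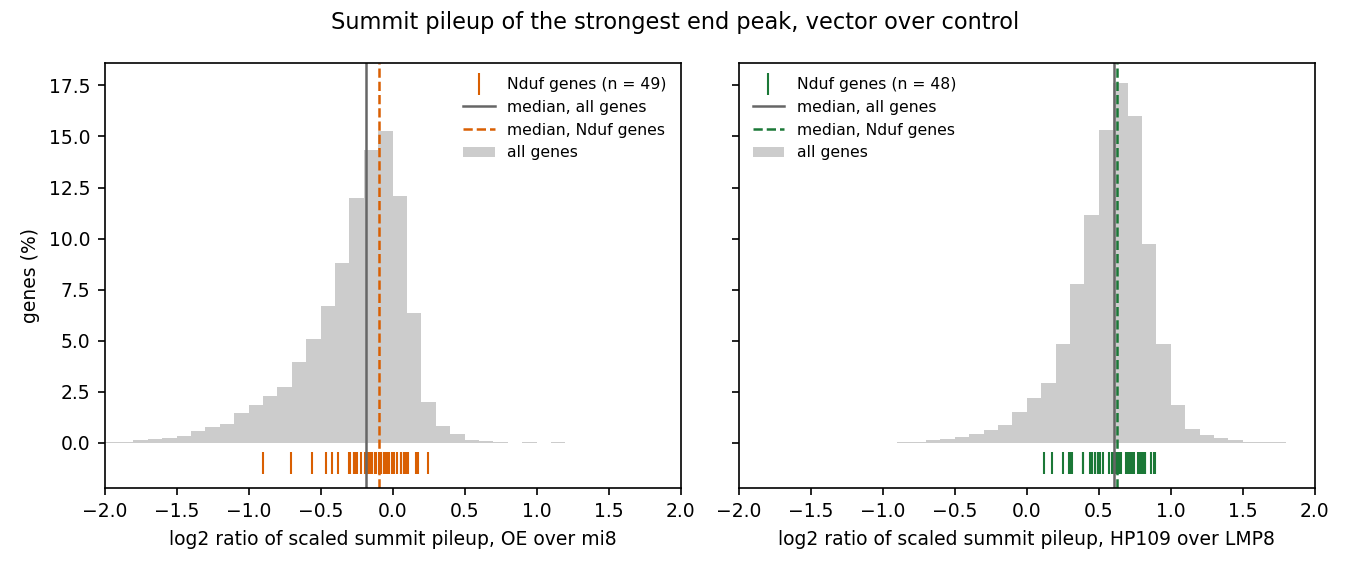
Log2 ratio of the scaled summit pileup (x axis) for OE over mi8 (left) and HP109 over LMP8 (right), with the percentage of all genes per bin as grey bars (y axis), Nduf genes as coloured ticks below and the medians of both as vertical lines. The medians lie close together in each panel, at ratios of 0.935 and 0.879 on the left and 1.54 and 1.52 on the right, and Ndufa3 is the leftmost tick on the left.

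The control vectors were also set against each other, as the background for these comparisons. Ndufb4b was again the only Nduf gene that mi8 held and LMP8 lacked, against 2.92% of all genes. None had the reverse, against 0.512%, which follows from the end peaks at all Nduf genes in mi8. The ratio of LMP8 to mi8 had a median of 0.896 over 48 Nduf genes and 0.889 over 13537 genes. It was at least 1.5 at 0 Nduf genes, against 0.717% of all genes, and at least 1.5 times as low at Ndufb7 and Ndufa3, against 3.6%. Ndufb7, a distal arm subunit held by disulfide bonds, had 83 reads in mi8, 62 in OE, 34 in LMP8 and 50 in HP109, or 42.6, 31.0, 23.9 and 36.9 after scaling, with a ratio of LMP8 to mi8 of 0.561 (counting interval 0.365 to 0.845). Its interval was the only one wholly below the all-gene median, a state of 0.406% of all genes, and none was wholly above it, against 0.369%. Ndufa3 had a ratio of 0.615 and Ndufaf6, an assembly factor, 0.707. The highest were 1.48 at Ndufa4l2, 1.25 at Ndufa1 and 1.23 at Ndufb11. The ratios of Ndufaf6 and Ndufa1 set different peaks of the gene against each other, as the strongest peaks of LMP8 and mi8 did not overlap at 3 of 48 Nduf genes (6.25%), against 5.81% of all genes. Compared within 1 region, Ndufaf6 had 62 reads in mi8 and 31 in LMP8 where mi8 had its strongest peak, a scaled ratio of 0.684. Where LMP8 had its own, the reads were 44 and 32 and the ratio 0.996. At Ndufa1 the direction turned with the region: 34 and 22 reads, a ratio of 0.886, at the strongest mi8 peak, and 34 and 31 reads, a ratio of 1.25, at the strongest LMP8 peak. The ratios of OE and of LMP8 to mi8 share the mi8 list.

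Beside the main peak, 25 Nduf genes had further end regions, 40 in all, made by merging peaks over the lists. That was 51.0% of the Nduf genes with an end peak, against 52.8% of all such genes. Of the 40 regions, 10 (25%) were present in all 4 lists, against 32.9% of 11764 such regions over all genes. HP109 held a peak at 31, mi8 at 27, LMP8 at 20 and OE at 15, or 77.5%, 67.5%, 50.0% and 37.5%. Over all genes the shares were 72.5% for HP109, 78.8% for mi8, 60.8% for LMP8 and 40.7% for OE, so OE, the shortest list, held the fewest in both. HP109 alone had 11 (27.5%, against 10.1% over all genes) and mi8 alone 4 (10%, against 14.6%). LMP8 alone had 2 (5%, against 5.34%) and OE alone 0 (against 1.81%). The 11 regions in HP109 alone had −log10 q values from 1.74 to 8.86. Counted by peak within a list, the end peaks other than the strongest of each gene were mostly weak. In mi8 there were 35, with a median −log10 q of 10.2 against 73.4 for the strongest ones. Some were strong, up to 82.1 in mi8 and 87.8 in HP109, both at Ndufs8.

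The promoter windows of 42 Nduf genes, 44 windows in all, were richer in CpG than those of other open genes. Their median observed over expected CpG ratio was 0.828, against 0.742 in 12599 windows of genes with an end peak in all 4 lists and 0.567 in all 21262 windows. The ratio was at least 0.6 in 84.1% of Nduf windows, 66.9% of the open windows and 47.7% of all. The content of G and C was similar, with medians of 59.3, 60.3 and 56.3%. CpG-rich promoters of this kind are typical of housekeeping genes.

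Motifs were searched as exact letters on either strand, N standing for any base. The YY1 letters AANATGGCG were in 8 of 44 Nduf windows (18.2%, exact interval 8.19 to 32.7), against 4.72% of open and 3.12% of all windows, and the interval lay above both. The genes were Ndufa7, Ndufa9, Ndufaf8, Ndufb11, Ndufc1, Ndufs4, Ndufs6 and Ndufs7, and the match began at a median of 23 bp after the start, as in the Ndufs7 and Ndufaf8 sequences above. The NRF1 letters (in capitals in the Ndufa11 sequence above), named for the factor that drives many respiratory chain genes, were in 3 windows (6.82%, interval 1.43 to 18.7), those of Ndufa11, Ndufaf4 and Ndufaf5, against 1.99% and 1.33%. The ETS letters CCGGAAG were in 6 (13.6%, interval 5.17 to 27.4), against 17.0% and 11.6%. These intervals included the share of open windows. SP1 letters GGGCGG were in 22 of 44 windows (against 60.4 and 46.2%), NFY letters CCAAT in 14 (31.8%, against 38.2 and 38.2%), TATAAA in 5 (11.4%, against 7.75 and 12.6%) and the CREB letters TGACGTCA in 3 (6.82%, against 3.09 and 2.23%). The ERR letters TCAAGGTCA were in 0 of 44, against 0.262 and 0.334%. Matches of different motifs overlapped once, an ETS and an SP1 match in Ndufs3. A match describes letters and not binding, and 28 of the 44 windows (63.6%) held none of the ETS, NRF1 and YY1 letters, against 77.8% of open windows.

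**Figure D5:**
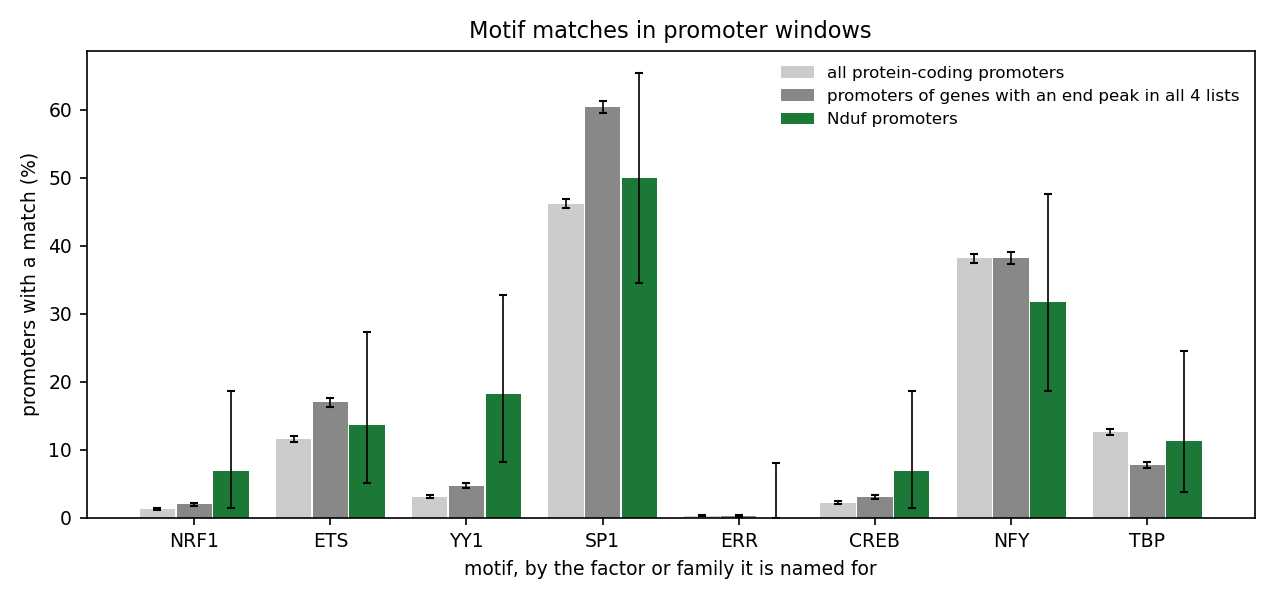
Percentage of promoter windows (y axis) that hold each motif (x axis), for all protein-coding genes in light grey, genes with an end peak in all 4 lists in dark grey and Nduf genes in green, with exact 95% binomial intervals as error bars. YY1 is the motif whose Nduf interval, 8.19 to 32.7%, lies above both grey bars.

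Strength did not follow the motifs in a single direction. Over the lists, the median end peak was 60.2 for the 8 Nduf genes with YY1 letters and 67.8 for the 33 without, and 60.1 for the 6 with ETS letters against 67.8 for the 35 without. The 3 genes with NRF1 letters had 78.4, against 64.5 for the 38 without. Among all open genes the medians with and without were 67.4 and 63.5 for YY1 and 72.9 and 61.0 for ETS. For NFY letters the Nduf medians were 79.0 for 14 genes with and 61.1 for 27 without, and over all open genes 72.0 and 57.5. For SP1 they were 64.4 for 21 with and 72.0 for 20 without, and over all open genes 67.7 and 55.0. For TATAAA they were 44.7 for 4 and 76.2 for 37, and over all open genes 56.5 and 64.2. For CREB they were 79.2 for 3 and 65.3 for 38, and over all open genes 66.0 and 63.6. With 3 to 20 genes in the smaller group these are descriptions only.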

How the data were processed

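Accessible chromatin was measured by ATAC-seq in 9 libraries: 4 vectors with 2 libraries apiece, plus 1 input. The tools were BWA, Picard and MACS2 and the build was mm10, per the submitters' processing notes; versions, thresholds and read shifting: not given in the sources used here. Per the labels, the authors called 1 list for each vector against the single mi8 input, and each name contains "downsample". The score column the authors deposited is 10 times the −log10 q as a whole number, except at 2 OE peaks. The fold column the authors deposited is the ratio of summit pileup to local background. The −log10 p and −log10 q columns the authors deposited place the summit against that background, as a p-value and a q-value. Fold, −log10 p and −log10 q are the authors' values throughout.

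Peaks outside the autosomes and the sex chromosomes were dropped. To recover pileups, the fold was read as (pileup + 1) / (background + 1) and the p-value as the upper tail of a Poisson distribution. Whole-number solutions reproduced −log10 p to within 0.001 at 100% of the peaks. Intervals of pileup ratios treat each pileup as a count and cover counting error only. Genes, without strand or exons, and promoter sequences came from RefSeq tables of GRCm38.p6; the promoter table held 42 of the 49 genes. The recovery and the counts were tested on simulated data. Python 3.11.15 with numpy 2.4.6, pandas 2.3.3 and scipy 1.17.1 was used.

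The members and gene lists were chosen with earlier results of these data known. Named genes were those lacking an end peak in a list, the 6 highest and 6 lowest by median strength, nuclear core subunits, Ndufa4 and Ndufa4l2, and the 3 highest and 3 lowest pileup ratios of each pair of lists; other names were chosen after their values were seen. 1 gene is counted in the totals but not reported here by name. Alternatives were windows of 500 and 2500 bp, a −log10 q of at least 5 or 10, equal numbers of peaks per list, the summit in the window, the gene start only, a peak without any overlap in the second list and, chosen after seeing the data, any peak in the gene span.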

Additional observations from a re-analysis of the deposited data

How the results depend on the processing

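The number of Nduf genes with an end peak in all 4 lists stayed at 48 of 49 with windows of 500 and 2500 bp, a −log10 q of at least 5, equal numbers of peaks per list, the summit in the window and any peak in the gene span, and was 41 of 42 with the start only. At a −log10 q of at least 10 it was 46, without Ndufa4l2, Ndufaf1 and Ndufb4b. The 3 values that moved all came from that threshold: the genes with a peak in HP109 and none in LMP8, in mi8 and none in LMP8, and in mi8 and none in OE then numbered 2 each, in place of 1, 1 and 0. The other 139 values kept to within 1.5 times the reported count or within its interval. No paired analysis was possible because each vector has 1 pooled list, which also leaves no replicate to leave out. Pileups of 15 to 104 reads limit how small a difference could be seen.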

Other observations

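Besides Ndufa4l2, Ndufs4, Ndufaf7 and Ndufa9 had a peak away from the gene ends that was the strongest of the gene in at least 1 list. At Ndufs4, an N module subunit whose loss causes a mitochondrial disease in mice and people, an internal peak at 114309513 to 114309868 of chromosome 13 in mi8 had a −log10 q of 60.9 in mi8, 54.3 in OE, 40.7 in LMP8 and 54.1 in HP109, and led the gene in all 4 lists, against 59.8, 44.9, 30.9 and 39.6 for its end peak. At Ndufaf7, a methyltransferase of complex I assembly, a peak at 78938951 to 78939481 of chromosome 17 led in mi8 (97.5) and one at 78938960 to 78939456 in HP109 (109), while the end peak led in OE and LMP8. At Ndufa9, a Q module subunit, a peak at 126845133 to 126845437 of chromosome 6 led in OE (77.9) and one at 126845125 to 126845455 in HP109 (76.4), and the end peak led in mi8 and LMP8. Whether these peaks are enhancers or other starts was not tested.

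A second region at the Ndufs8 end, 3911768 to 3912049 of chromosome 19, was singled out after its values were seen. Its −log10 q was 35.8 in mi8, 7.38 in OE, 23.3 in LMP8 and 14.4 in HP109, with pileups of 45, 18, 31 and 22, not scaled for depth. In these unscaled values both controls were above both Pcgf6 vectors, with no replicate behind any of the 4 values. How many regions of all genes have this order was not counted.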
